A study of Mus musculus with 12 samples.

Results

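The genes described here are 44 genes of autophagy and the lysosome, out of 46078 genes in the deposited count table of mouse liver. They were chosen by name, through the Ensembl identifiers that GENCODE pairs with their symbols, and the rule uses no measured value. Of the 44, 26 belong to the autophagy machinery, 2 are transcription factors and 16 belong to the lysosome. Liver RNA was sequenced from 12 C57BL/6 mice with diet-induced obesity, aged 21 weeks, 4 in each of 3 groups: vertical sleeve gastrectomy (VSG), an operation that leaves a narrow tube of stomach; sham surgery followed by restricted food, to bring body weight down to that of VSG mice (Sham-WM); and sham surgery followed by free feeding (Sham-Ad lib). The comparisons ask how the liver differs after surgery and after the same weight loss by restricted food alone, each against obese mice that kept their weight, and directly against each other. All 3 groups had been fattened on a high fat diet, had the abdomen opened under anaesthesia and received the same drugs afterwards, so no group was free of surgery, and livers were taken once weight had stabilised, after a short period without food. When each mouse last ate before that was not analysed here.

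Autophagy encloses worn proteins, lipid droplets and organelles in a double membrane and delivers them to the lysosome, where acid hydrolases break them down. A kinase complex around ULK1 starts the process and a lipid kinase complex around Beclin 1 marks the membrane. Membrane carriers then extend it, a ubiquitin-like conjugation system attaches proteins of the ATG8 family (LC3 and GABARAP) to it, and receptors tie cargo to these proteins. In the liver, autophagy supplies amino acids and fatty acids between meals, and TFEB and TFE3 switch on lysosomal genes through a short palindrome in their promoters, called the CLEAR element.

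Promoters were available from RefSeq (build GRCm38) for 36 of the 44 genes, as 250 bases before to 50 bases after a transcript's start. The CLEAR-type motif TCACGTGA, which reads the same on both strands, was in 7 of these 36 promoters (19.4%), against 1.12% of all 27025 genes with a promoter and 2.19% of the 10114 genes tested for expression that had one. Among the 13 lysosomal genes with a promoter 6 carried it, and among the 21 of the autophagy machinery only Atg3 did. The sites are shown because this sequence was more common among these 13 lysosomal genes than among the rest of the 36. Lysosomal genes outside the 44 varied. The motif was in 1 of 29 further hydrolases and activators with a promoter (3.45%) and 1 of 12 further proton pump genes (8.33%). It was in 4 of 20 further genes of the lysosomal membrane and of sorting. Each line gives the bases around a site in the direction of the gene, with the motif in capitals.
Atg3: gagagtcgagTCACGTGAggccttaggt
Mcoln1: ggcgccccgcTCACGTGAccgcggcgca
Ctsa: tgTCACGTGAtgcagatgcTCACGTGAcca
Ctsd: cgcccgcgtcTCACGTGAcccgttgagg
Gla, site farther from the start: aagcgattgaTCACGTGAgcatctacgt
Gla, site nearer the start: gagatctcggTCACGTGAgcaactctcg
Atp6v0d1: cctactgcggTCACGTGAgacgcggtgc
Atp6v1a: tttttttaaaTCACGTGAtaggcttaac
The stretches lie at chr16:45158747-45158774 on the plus strand for Atg3, chr8:3500463-3500490 on the plus strand for Mcoln1 and chr2:164833758-164833787 on the plus strand for Ctsa, where both sites flank a second RefSeq start. On the minus strand they lie at chr7:142387909-142387936 for Ctsd, chrX:134601216-134601243 and chrX:134601183-134601210 for Gla, chr8:105566051-105566078 for Atp6v0d1 and chr16:44139374-44139401 for Atp6v1a. The shorter core CACGTG, which every TCACGTGA contains, was in 13 of the 36 promoters (36.1%) against 8.09% of all genes with a promoter. A match of letters does not show that a factor binds there.

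Library totals ran from 15122520 to 19384076 counted reads. The filter on low counts kept 13054 genes, all 44 among them, and the lowest count of any of them in a library was 91 (Gla). Levels are given as CPM, a gene's share of its library's counts in parts per 1000000 after scaling for library composition (TMM), in the order of animals 3F, 4F, 6F and 10F for Sham-Ad lib, 2F, 9F, 15F and 16F for Sham-WM, and 1F, 8F, 11F and 18F for VSG. Fold changes and adjusted p-values come from edgeR's quasi-likelihood test over the 13054 genes that passed the filter, and a gene is said to rise or fall only where its adjusted p was under 0.05. Albumin took 4.89% to 12.2% of the counts of each library, and the markers of hepatocytes were detected in every library. Groups follow the animal number shared by a sample's title and a column of the table, because the description field of the labels points to other columns. The numbers that follow an S in the column names run in 1 unbroken block for each group, and what they stand for is not given in the sources used here, so anything they mark cannot be told apart from treatment.

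Part of the autophagy machinery was lower in Sham-WM mice than in the other mice, and most lysosomal hydrolases were highest in VSG mice. In Sham-WM against Sham-Ad lib, 12 of the 44 genes passed the test (27.3%, against 6.99% of all genes tested), 11 of them lower (3.45% of all genes tested were lower) and 1 higher (3.53%). The genes that fell were the ATG8 genes Gabarapl1 and Map1lc3b, the initiation and membrane genes Ulk1, Atg14, Atg2a, Wipi1 and Wipi2, the cargo receptors Bnip3 and Optn, and the lysosomal pair Ctsa and Neu1. Lysosomal acid lipase (Lipa) rose. In VSG against Sham-WM, 20 of the 44 passed (45.5%, against 26.9% of all genes tested), 17 of them higher (15.0% of all genes tested were higher) and 3 lower (11.9%), namely Atg3, Atg9a and Lipa. In VSG against Sham-Ad lib, edgeR called none of the 44 at an adjusted p under 0.05, where it called 0.751% of all genes tested (0.467% higher and 0.283% lower). The lowest adjusted p was 0.0579 (Ctsz), and 15 of the 44 had an unadjusted p under 0.05, against 24.1% of all genes tested. DESeq2 called 7 of the 44 there, against 9.21% of all genes, while it called 15 in Sham-WM against Sham-Ad lib (11.1% of all genes) and 21 in VSG against Sham-WM (31.3% of all genes). At an unadjusted p under 0.05 the latter comparisons held 16 and 23 of the 44, against 21.6% and 40.4% of all genes. The 4 values of one group all lay above those of the other for 2 of the 44 in Sham-WM against Sham-Ad lib (9.17% of all genes) and below them for 15 (8.40%). In VSG against Sham-WM this held for 16 above (14.3%) and 2 below (11.9%), 26.2% of all genes in either direction, and in VSG against Sham-Ad lib for 4 above (4.87%) and 5 below (4.34%), 9.21% in either direction. For Sham-WM against Sham-Ad lib the share in either direction was 17.6%. The comparisons share groups, so their counts are not independent of each other. With the groups taken from the description field instead, edgeR called none of the 44 genes and 0% of all genes tested in any comparison. Every call below therefore rests on the animal numbers. With 2 factors of unwanted variation estimated from replicates (RUVs), 6 of the 44 were called in VSG against Sham-WM, against 3.97% of all genes. They were Gabarapl1, Map1lc3b, Wipi1, Bnip3, Ctsa and Neu1, and the other calls of this comparison were lost.

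**Figure D1:**
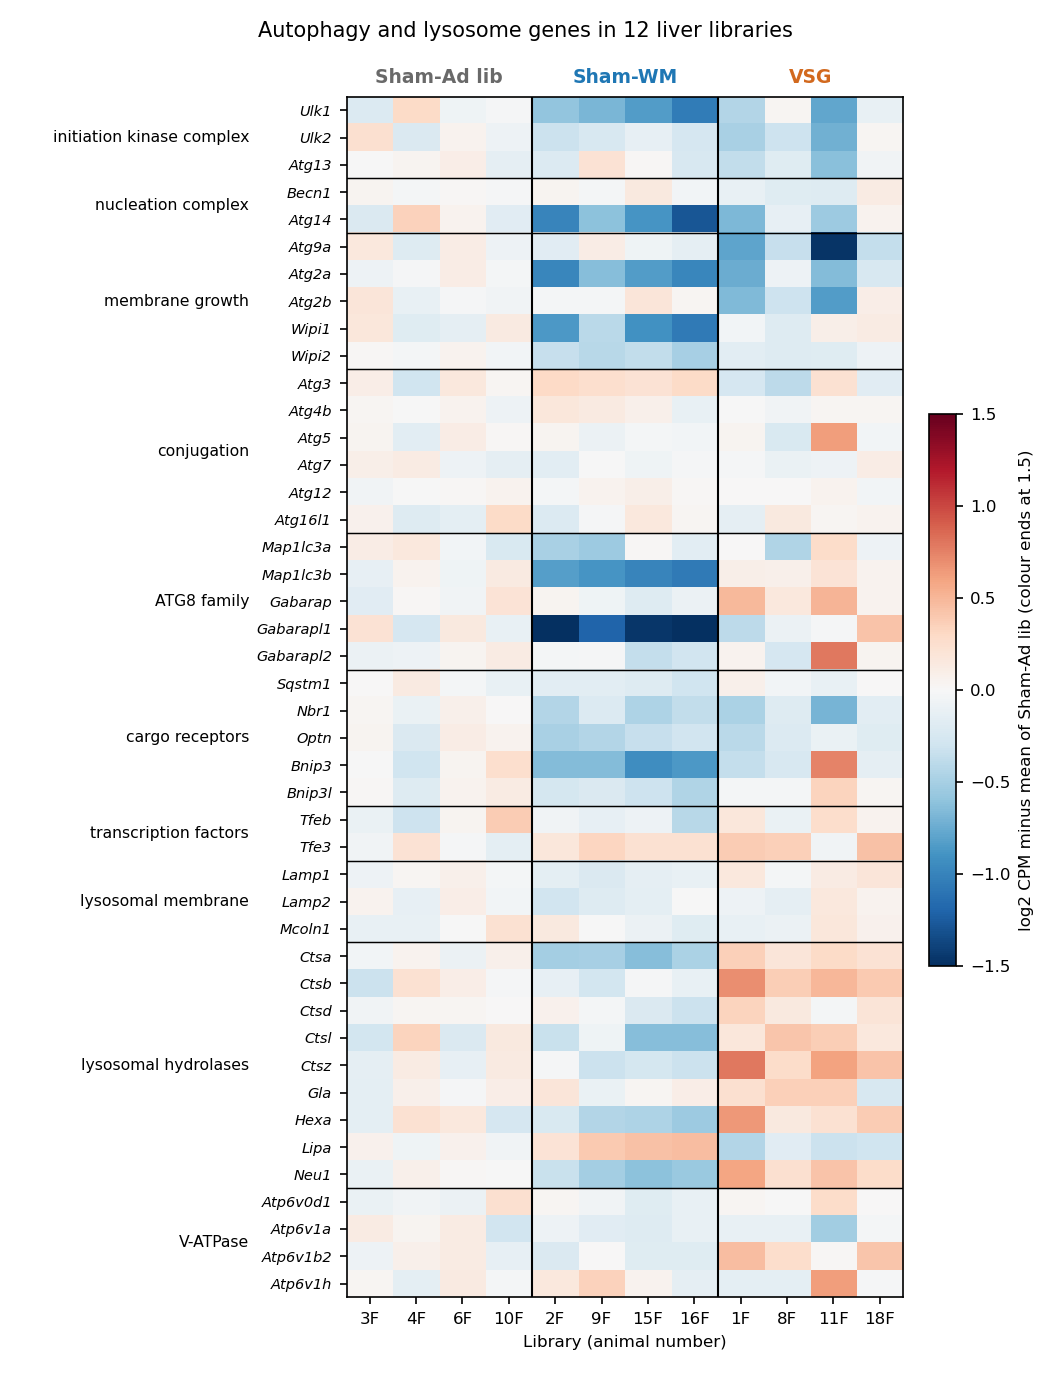
Each row is 1 of the 44 genes, ordered by role, and each column 1 library, with the animal's number below. Colour gives the log2 CPM minus the mean of the 4 Sham-Ad lib libraries, from blue (lower) to red (higher). In the Sham-WM columns, Gabarapl1, Map1lc3b, Atg14, Atg2a, Wipi1, Ulk1 and Bnip3 are blue in all 4 libraries, and in the VSG columns most lysosomal hydrolases are red while Lipa is blue.

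The autophagy machinery and the lysosome are given apart here, and the difference between them was not tested. Among the 26 genes of the machinery, the median log2 fold change was -0.23 in Sham-WM against Sham-Ad lib, -0.035 in VSG against Sham-Ad lib and 0.18 in VSG against Sham-WM. Among the 16 lysosomal genes the same medians were -0.15, 0.18 and 0.27, and over all genes tested they were 0.001, 0.028 and 0.028. In Sham-WM against Sham-Ad lib 9 genes of the machinery fell and none rose (34.6% of the 26 called). Of the lysosomal genes 2 fell and 1 rose (18.8% of the 16 called). Over all genes tested 3.45% fell and 3.53% rose. All 4 Sham-WM libraries lay below the other 8 for 10 of the 44 genes (4.40% of all genes tested), namely Wipi1, Wipi2, Map1lc3b, Gabarapl1, Sqstm1, Bnip3, Bnip3l, Lamp1, Ctsa and Neu1. All 4 VSG libraries lay above the other 8 for 4 of the 44 (2.90% of all genes tested), and these were the hydrolases Ctsa, Ctsb, Ctsz and Neu1. Lipa was the 1 gene with all Sham-WM libraries above the other 8 (5.01% of all genes tested), and Atg9a and Lipa the 2 with all VSG libraries below them (2.21%). Atg2a, Wipi2 and Nbr1 were the 3 with all Sham-Ad lib libraries above the rest (0.682%), and none had them below (0.483%). For VSG against Sham-WM the count of the 44 was 13 without library 2F (22.3% of all genes tested were then called), 12 without 15F (16.8%) and 12 without 16F (16.5%). In VSG against Sham-Ad lib, 2 of the 44 were called without library 4F (6.82% of all genes), 1 without 8F (1.72%) and 5 without 18F (8.2%).

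Of the initiation kinase complex, Ulk1 fell in Sham-WM mice. Ulk1 encodes the kinase that nutrient shortage releases to start autophagy (mm10 chr5:110784488-110810097, minus strand). It stood at 98.00, 138, 107.7 and 111.5 CPM in Sham-Ad lib, 74.9, 70.3, 62.9 and 54.4 CPM in Sham-WM and 83.3, 115.3, 65.5 and 104.8 CPM in VSG. All 4 Sham-WM values lay below the 4 Sham-Ad lib values, and the VSG values overlapped both groups, with 11F among the Sham-WM values. The log2 fold change was -0.79 ± 0.17 (SE), adjusted p = 0.0155 in Sham-WM against Sham-Ad lib, 0.49 ± 0.17 (SE), adjusted p = 0.0492 in VSG against Sham-WM and -0.30 ± 0.17 (SE), adjusted p = 0.295 in VSG against Sham-Ad lib. Its partner kinase Ulk2 and the adaptor Atg13 did not pass the test in any comparison, with log2 fold changes of -0.24 and -0.041 in Sham-WM against Sham-Ad lib and -0.11 and -0.25 in VSG against Sham-WM. When each library was left out in turn, the fall of Ulk1 in Sham-WM held in 10 of the 12 fits and was lost without either 15F or 16F, with an adjusted p of up to 0.0597. The difference of Ulk1 between VSG and Sham-WM held in 2 of the 12 fits. It was lost without any one of 3F, 6F, 10F, 2F, 9F, 15F, 16F, 1F, 8F and 18F, with an adjusted p of up to 0.148. It was also lost with RUVs factors, with DESeq2's size factors, without the filter on low counts and in the fit of the 2 groups alone.

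The subunits of the lipid kinase complex parted: Atg14, which directs the complex to autophagy, fell in Sham-WM, whereas Beclin 1 (Becn1), its scaffold, did not pass the test. Atg14 (mm10 chr14:47540893-47570649, minus strand) stood at 25.4, 37.6, 30.6 and 26.3 CPM in Sham-Ad lib, 14.8, 19.4, 15.96 and 12.04 CPM in Sham-WM and 18.5, 27.1, 20.3 and 30.6 CPM in VSG. Becn1 stood at 37.7, 36.1, 37.1 and 36.2 CPM in Sham-Ad lib, 37.9, 35.9, 40.6 and 35.8 CPM in Sham-WM and 33.9, 32.4, 32.01 and 40.04 CPM in VSG. For Atg14 the Sham-WM values were all below those of Sham-Ad lib, library 9F being the highest of the Sham-WM values and still above 1F, and for Becn1 the 3 groups overlapped within a narrow range. The log2 fold change of Atg14 was -0.95 ± 0.19 (SE), adjusted p = 0.0105 in Sham-WM against Sham-Ad lib and 0.63 ± 0.19 (SE), adjusted p = 0.0269 in VSG against Sham-WM, and that of Becn1 was 0.03 ± 0.095 (SE), adjusted p = 0.902 and -0.12 ± 0.095 (SE), adjusted p = 0.373. In VSG against Sham-Ad lib the values were -0.31 for Atg14 and -0.088 for Becn1, neither past the threshold. The rise of Atg14 over Sham-WM held in 7 of the 12 fits. It was lost without any one of 2F, 15F, 16F, 8F and 18F, with an adjusted p of up to 0.0821, and also with RUVs factors.

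Among the 5 genes that build and extend the membrane, Atg2a, Wipi1 and Wipi2 fell in Sham-WM, and Atg9a was lower in VSG. WIPI proteins bind the phosphorylated lipid that the kinase complex makes, ATG2 proteins carry lipid into the growing membrane and ATG9A moves lipid between its leaflets. Wipi1 (mm10 chr11:109573331-109611967, minus strand) stood at 21.5, 16.8, 17.4 and 21.02 CPM in Sham-Ad lib, 10.4, 14.3, 10.2 and 9.12 CPM in Sham-WM and 18.5, 16.7, 20.3 and 20.8 CPM in VSG, and all 4 Sham-WM values lay below the other 8. Its log2 fold change was -0.80 ± 0.15 (SE), adjusted p = 0.00701 in Sham-WM against Sham-Ad lib and 0.79 ± 0.15 (SE), adjusted p = 0.00289 in VSG against Sham-WM, with VSG and Sham-Ad lib at 19.1 ± 1.88 and 19.2 ± 2.43 CPM (SD, n = 4). Wipi2 stood at 78.5, 75.7, 80.5 and 75.6 CPM in Sham-Ad lib, 61.05, 57.9, 60.03 and 54.99 CPM in Sham-WM and 69.2, 67.8, 68.1 and 73.5 CPM in VSG, in 3 ranges that did not overlap, with Sham-WM lowest and Sham-Ad lib highest. The log2 fold change of Wipi2 was -0.41 ± 0.08 (SE), adjusted p = 0.00942 in Sham-WM against Sham-Ad lib and 0.25 ± 0.08 (SE), adjusted p = 0.0337 in VSG against Sham-WM. The latter difference held in 2 of the 12 fits. It was lost without any one of 3F, 6F, 10F, 2F, 9F, 15F, 16F, 1F, 8F and 18F, with an adjusted p of up to 0.107. It was also lost with RUVs factors, without the filter on low counts and in the fit of the 2 groups alone.

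Atg2a stood at 54.9, 57.2, 62.8 and 56.9 CPM in Sham-Ad lib, 29.4, 37.2, 32.4 and 29.4 CPM in Sham-WM and 34.4, 54.9, 36.8 and 49.1 CPM in VSG. The Sham-Ad lib values were above the rest, 3F over 8F by less than the digits show, and VSG split, with 1F and 11F within the range of Sham-WM and 8F and 18F above it. The log2 fold change was -0.85 ± 0.15 (SE), adjusted p = 0.00476 in Sham-WM against Sham-Ad lib and 0.45 ± 0.15 (SE), adjusted p = 0.0362 in VSG against Sham-WM. The latter call held in 6 of the 12 fits. It was lost without any one of 10F, 2F, 15F, 16F, 8F and 18F, with an adjusted p of up to 0.116. It was also lost with RUVs factors, without the filter on low counts and in the fit of the 2 groups alone. Atg9a went another way, at 40.7, 31.7, 39.4 and 34.6 CPM in Sham-Ad lib, 32.3, 39.4, 34.7 and 33.04 CPM in Sham-WM and 20.97, 28.7, 13.03 and 28.3 CPM in VSG. Here all 4 VSG values, and 11F most, lay below the other 8, at a log2 fold change of -0.61 ± 0.20 (SE), adjusted p = 0.0361 against Sham-WM and -0.68 ± 0.20 (SE), adjusted p = 0.0786 against Sham-Ad lib. The call of Atg9a against Sham-WM held in 7 of the 12 fits. It was lost without any one of 2F, 9F, 15F, 16F and 1F, with an adjusted p of up to 0.0873. It was also lost with RUVs factors and in the fit of the 2 groups alone. Ankzf1 lies on the opposite strand over part of Atg9a, and whether the counting used the strand is not given in the sources used here, so reads of the pair may not be told apart. Atg2b did not pass the test, at 0.04 in Sham-WM against Sham-Ad lib and -0.43 in VSG against Sham-WM.

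Of the conjugation system, Atg3 alone passed the test. None of the 6 genes passed the test in Sham-WM against Sham-Ad lib (6.99% of all genes did), with log2 fold changes between -0.066 and 0.25. Only Atg3 did in VSG against Sham-WM (16.7% of the 6, against 26.9% of all genes). Atg7, the enzyme that activates both ubiquitin-like chains, stood at 49.9, 51.2, 44.7 and 42.7 CPM in Sham-Ad lib, 42.2, 46.8, 44.8 and 46.3 CPM in Sham-WM and 46.5, 43.8, 44.5 and 50.7 CPM in VSG, and the 3 groups overlapped. Atg3, which transfers ATG8 proteins to lipid, stood at 92.8, 70.4, 95.9 and 88.4 CPM in Sham-Ad lib, 105.9, 103, 100.2 and 105.3 CPM in Sham-WM and 72.3, 65.9, 101 and 76.7 CPM in VSG. For Atg3 the Sham-WM values all lay above those of Sham-Ad lib, and in VSG 11F lay far above the other 3 libraries and within the range of Sham-WM. Its log2 fold change was -0.39 ± 0.13 (SE), adjusted p = 0.0452 in VSG against Sham-WM and 0.25 ± 0.13 (SE), adjusted p = 0.297 in Sham-WM against Sham-Ad lib. The call against Sham-WM held in 3 of the 12 fits. It was lost without any one of 3F, 6F, 2F, 9F, 15F, 16F, 1F, 8F and 18F, with an adjusted p of up to 0.112. It was also lost with RUVs factors, in the fit of the 2 groups alone and with upper quartile factors. Atg4b, Atg5, Atg12 and Atg16l1 had absolute log2 fold changes of at most 0.16 in every comparison.

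The ATG8 family held the 2 largest log2 fold changes of the 44 genes. Gabarapl1 (mm10 chr6:129533160-129542346, plus strand), whose protein joins the membrane and binds cargo receptors, stood at 490.0, 352, 466 and 389 CPM in Sham-Ad lib, 144, 184, 153 and 121 CPM in Sham-WM and 320.1, 395, 415 and 565 CPM in VSG. The Sham-WM values all lay far below the other 8, and the VSG values spread over the whole range of Sham-Ad lib and beyond it on both sides. Gabarapl1 was 2.82-fold lower in Sham-WM than in Sham-Ad lib (log2 fold change -1.50 ± 0.18 (SE), adjusted p = 0.000509) and 2.82-fold higher in VSG than in Sham-WM (1.49 ± 0.18 (SE), adjusted p = 0.000315). In VSG against Sham-Ad lib its log2 fold change was -0.0023 ± 0.18 (SE), adjusted p = 0.995. An exact permutation test on its 4 against 4 log2 CPM values gave a two-sided p of 0.0286 in both comparisons with Sham-WM, the smallest that 4 against 4 allow. Any gene whose groups do not overlap gets this value, so it adds nothing to the ranges above. Groups did not overlap for 17.6% of all genes in Sham-WM against Sham-Ad lib and for 26.2% in VSG against Sham-WM.

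Map1lc3b encodes LC3B, the most used marker of autophagosomes (mm10 chr8:121590361-121598760, plus strand). It stood at 135, 153, 142 and 162 CPM in Sham-Ad lib, 83.4, 80.1, 74.5 and 70.5 CPM in Sham-WM and 157, 156, 170.4 and 153 CPM in VSG. Every Sham-WM value lay below the other 8, and the VSG and Sham-Ad lib ranges overlapped. LC3B RNA had a log2 fold change of -0.94 ± 0.10 (SE), adjusted p = 0.000125 in Sham-WM against Sham-Ad lib, 1.04 ± 0.10 (SE), adjusted p = 4.80e-05 in VSG against Sham-WM and 0.10 ± 0.10 (SE), adjusted p = 0.518 in VSG against Sham-Ad lib. Both differences of Map1lc3b and Gabarapl1 from Sham-WM held when any 1 library was left out. Zcchc14 lies opposite Map1lc3b, with the same limit on strand as for Atg9a.

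Gabarap, the founding member of the GABARAP branch, was higher in VSG than in Sham-WM but did not pass the test in Sham-WM against Sham-Ad lib. It stood at 190.2, 217, 207 and 246 CPM in Sham-Ad lib, 221, 205, 188 and 202 CPM in Sham-WM and 299, 239, 304 and 222 CPM in VSG. Every VSG value lay above every Sham-WM value, 18F by the smallest step, and the Sham-WM and Sham-Ad lib ranges overlapped. The log2 fold changes were 0.38 ± 0.13 (SE), adjusted p = 0.04 and -0.077 ± 0.13 (SE), adjusted p = 0.791. The difference of VSG from Sham-WM held in 4 of the 12 fits. It was lost without any one of 4F, 6F, 2F, 9F, 15F, 16F, 1F and 11F, with an adjusted p of up to 0.113. It was also lost with RUVs factors, without the filter on low counts and in the fit of the 2 groups alone. Map1lc3a and Gabarapl2 did not pass in any comparison. Summed over the 5 genes, the family took 802 to 895 CPM in Sham-Ad lib, 460 to 539 CPM in Sham-WM and 854 to 1020 CPM in VSG, so the Sham-WM range lay below both others.

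**Figure D2:**
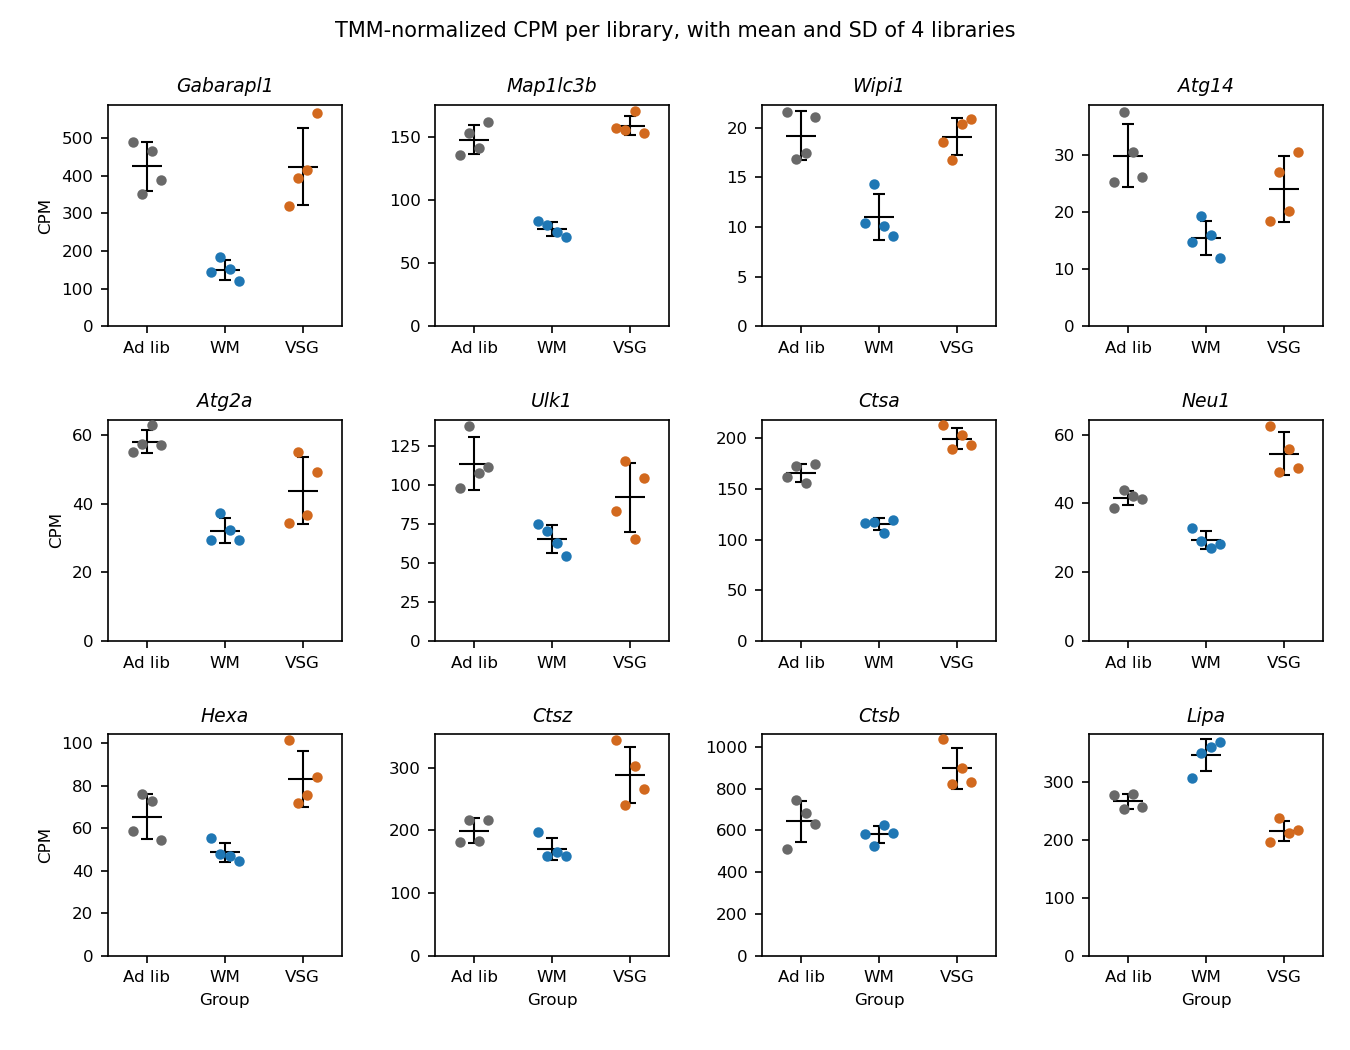
Points give the CPM of each library for 12 genes in the Sham-Ad lib, Sham-WM (WM) and VSG groups, with the mean and the SD of 4 libraries as bars, on axes that start at 0. The Sham-WM points of Gabarapl1, Map1lc3b, Wipi1, Ctsa and Neu1 lie below all other points of their panel, and those of Lipa lie above them.

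Of the 5 cargo receptors, Bnip3 and Optn fell in Sham-WM, and Bnip3 and Bnip3l, which mark mitochondria for removal, were higher in VSG than in Sham-WM. Bnip3 (mm10 chr7:138890836-138909519, minus strand) stood at 358, 291, 369 and 428 CPM in Sham-Ad lib, 228, 229, 187 and 198 CPM in Sham-WM and 279, 304, 602 and 326 CPM in VSG. All Sham-WM values lay below the other 8, and library 11F stood apart within VSG. It changed by -0.78 ± 0.22 (SE), adjusted p = 0.0472 on the log2 scale in Sham-WM against Sham-Ad lib and 0.84 ± 0.22 (SE), adjusted p = 0.014 in VSG against Sham-WM, and the first held in 4 of the 12 fits and was lost without any one of 3F, 6F, 10F, 2F, 9F, 15F, 16F and 18F, with an adjusted p of up to 0.139. Without library 11F the second was 0.53 and still called. Its relative Bnip3l stood at 91.9, 79.8, 94.3 and 98.9 CPM in Sham-Ad lib, 75.8, 78.5, 73.3 and 66.7 CPM in Sham-WM and 89.4, 89.5, 114.7 and 92.5 CPM in VSG, again with every Sham-WM value below the rest and 11F highest. Bnip3l rose in VSG over Sham-WM (0.39 ± 0.11 (SE), adjusted p = 0.0206), a call that held in 10 of the 12 fits. It was lost without either 15F or 16F, with an adjusted p of up to 0.0698, and also with RUVs factors. In Sham-WM against Sham-Ad lib the log2 fold change of Bnip3l was -0.31 ± 0.11 (SE), adjusted p = 0.111.

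Of the receptors of ubiquitin-tagged cargo, Optn passed edgeR's test and Sqstm1 and Nbr1 did not. Optn stood at 110.8, 92.8, 117 and 111.5 CPM in Sham-Ad lib, 77.00, 79.05, 84.4 and 87.9 CPM in Sham-WM and 81.1, 93.5, 100 and 94.4 CPM in VSG, and the Sham-WM values lay below those of Sham-Ad lib while VSG overlapped both. It fell in Sham-WM (-0.39 ± 0.10 (SE), adjusted p = 0.0351), a call that held in 5 of the 12 fits and was lost without any one of 3F, 6F, 10F, 2F, 9F, 15F and 16F, with an adjusted p of up to 0.105, and was also lost without the filter on low counts. Sqstm1, which encodes p62 and is itself consumed by autophagy, stood at 321, 350.0, 314 and 297 CPM in Sham-Ad lib, 286, 286, 279 and 259 CPM in Sham-WM and 338, 310.4, 296 and 320.4 CPM in VSG. All Sham-WM values of Sqstm1 were below the other 8 by a small step, at -0.21 ± 0.10 (SE), adjusted p = 0.236 in Sham-WM against Sham-Ad lib and 0.19 ± 0.10 (SE), adjusted p = 0.163 in VSG against Sham-WM, so neither passed the test. Nbr1 was at -0.37 in Sham-WM and -0.37 in VSG against Sham-Ad lib and at an adjusted p of 0.101 and 0.111, the Sham-Ad lib values lying above the other 8. These p-values are edgeR's, and DESeq2 called Nbr1 in both comparisons (adjusted p = 0.0496 and 0.0443).

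Neither transcription factor passed the test in any comparison. Tfeb stood at 8.54, 7.35, 9.41 and 11.98 CPM in Sham-Ad lib, 8.82, 8.396, 8.72 and 6.87 CPM in Sham-WM and 10.3, 8.58, 11.00 and 9.499 CPM in VSG. The 3 groups overlapped, with 10F highest and 16F lowest. Its log2 fold change was -0.18 ± 0.16 (SE), adjusted p = 0.564 in Sham-WM against Sham-Ad lib and 0.26 ± 0.16 (SE), adjusted p = 0.236 in VSG against Sham-WM. For Tfe3 the same values were 0.24 and 0.054, and in VSG against Sham-Ad lib 0.29. RNA levels say nothing of where these proteins are in the cell, which is how they are mainly controlled.

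**Figure D3:**
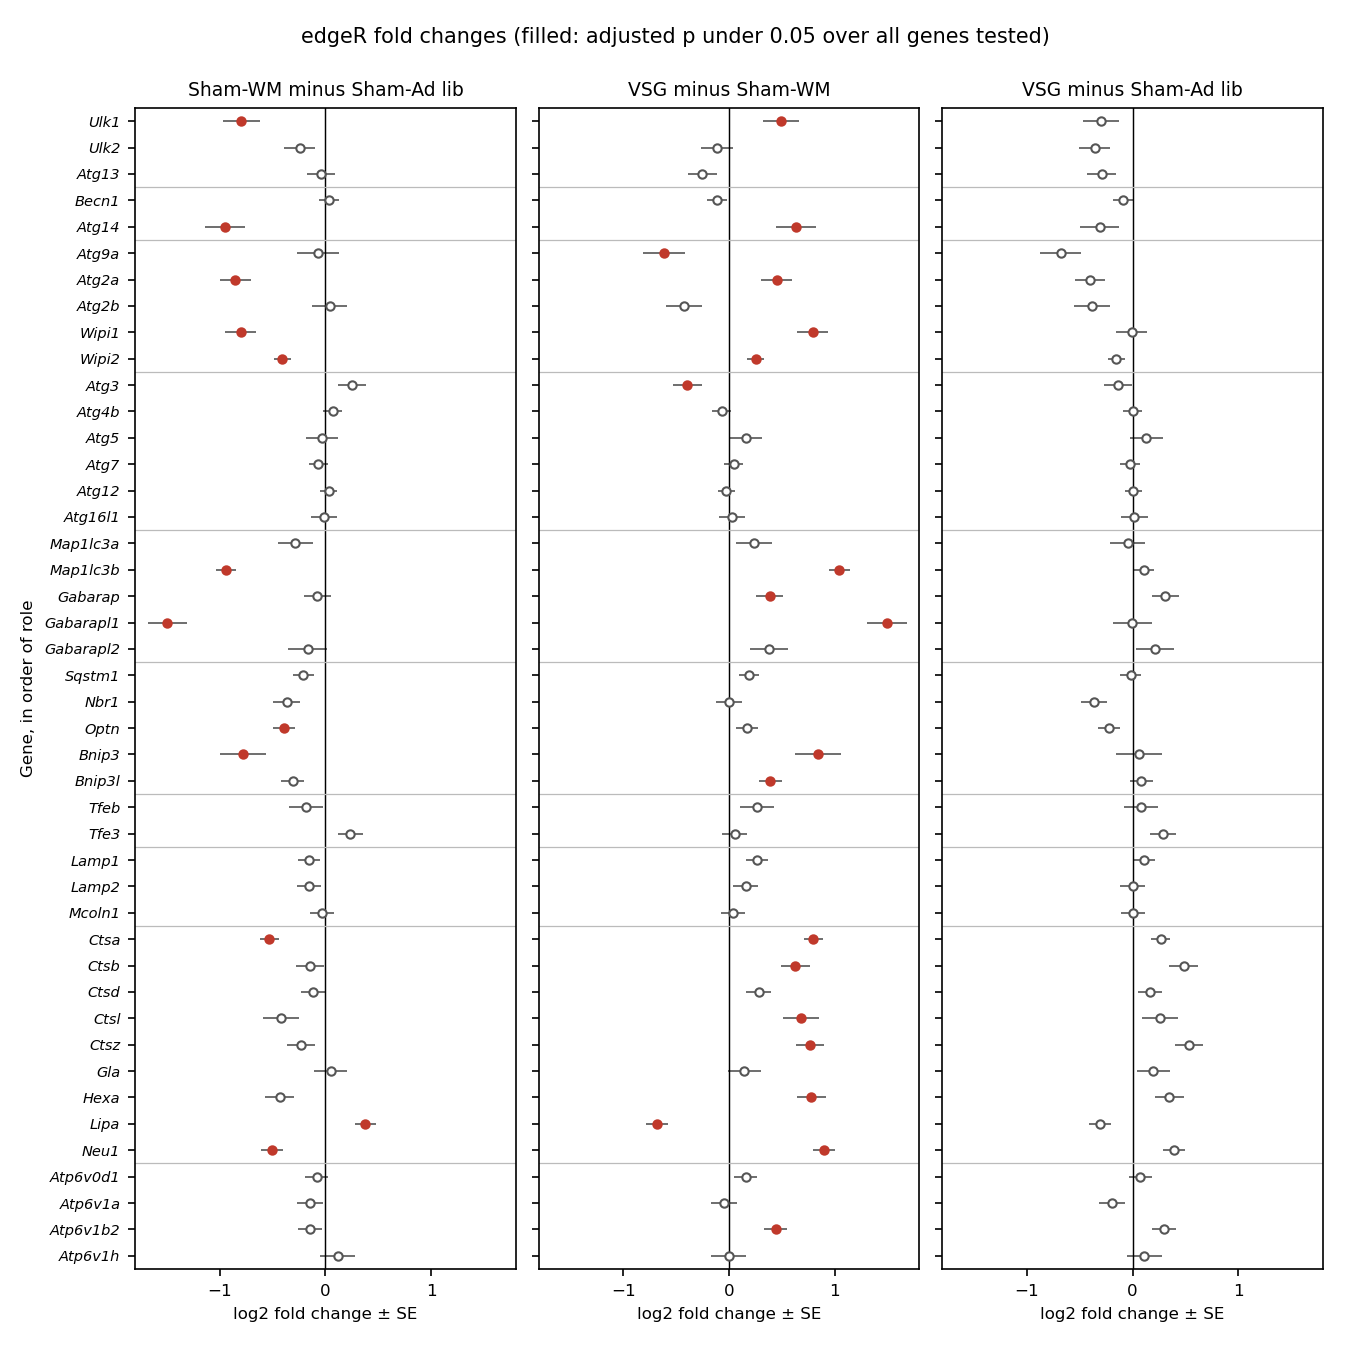
Points give edgeR's log2 fold change with its SE for each of the 44 genes, in order of role, for 3 comparisons named above the panels. Filled points passed an adjusted p of 0.05 over all genes tested: 12 in the first panel, 20 in the second and none in the third.

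The lysosomal hydrolases were the role with the most genes higher in VSG. Of the 9, 6 rose and 1 fell against Sham-WM (15.0% and 11.9% of all genes tested), with a median log2 fold change of 0.68. In Sham-WM against Sham-Ad lib 2 fell and 1 rose (3.45% and 3.53% of all genes), at a median of -0.23, and in VSG against Sham-Ad lib none passed the test by edgeR, at a median of 0.27 and with 8 of 9 above 0. In that comparison 6 had an unadjusted p under 0.05 (24.1% of all genes), and DESeq2 called 5 (9.21% of all genes), with Ctsa, Ctsb, Ctsz and Neu1 higher and Lipa lower. Summed CPM of the 9 genes was 2079 to 2649 in Sham-Ad lib, 1987 to 2170 in Sham-WM and 2739 to 3095 in VSG, so the VSG range lay above both others.

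Ctsa encodes a carboxypeptidase that also shields Neu1, the lysosomal sialidase, in a joint complex. Ctsa (mm10 chr2:164832873-164841032, plus strand) stood at 162, 172, 156 and 175 CPM in Sham-Ad lib, 117, 118, 106.3 and 119.7 CPM in Sham-WM and 213, 189, 203 and 194 CPM in VSG. Neu1 (mm10 chr17:34931253-34935953, plus strand) stood at 38.7, 43.8, 42.1 and 41.4 CPM in Sham-Ad lib, 32.9, 29.1, 27.03 and 28.1 CPM in Sham-WM and 62.6, 49.1, 55.97 and 50.2 CPM in VSG. Both formed 3 ranges that did not overlap, with Sham-WM lowest and VSG highest. The log2 fold change of Ctsa was -0.53 ± 0.09 (SE), adjusted p = 0.00476 in Sham-WM against Sham-Ad lib, 0.80 ± 0.091 (SE), adjusted p = 0.000184 in VSG against Sham-WM and 0.27 ± 0.09 (SE), adjusted p = 0.108 in VSG against Sham-Ad lib. For Neu1 these were -0.50 ± 0.10 (SE), adjusted p = 0.0123, 0.89 ± 0.10 (SE), adjusted p = 0.000205 and 0.39 ± 0.10 (SE), adjusted p = 0.0655. For both genes the first 2 calls held when any 1 library was left out. Pltp and Neurl2 lie opposite Ctsa, so the limit on strand applies here too.

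The cysteine proteases and Hexa, which encodes a subunit of beta-hexosaminidase, rose in VSG over Sham-WM. Ctsz stood at 181, 216, 182 and 217 CPM in Sham-Ad lib, 197, 159, 165 and 159 CPM in Sham-WM and 344, 239.9, 303 and 267 CPM in VSG, and every VSG value lay above the other 8, with 1F highest and 8F lowest. Ctsb stood at 511, 745, 684 and 631 CPM in Sham-Ad lib, 583, 528, 627 and 588 CPM in Sham-WM and 1036, 825, 899.6 and 833 CPM in VSG, again with every VSG value above the other 8 and 1F highest. Their log2 fold changes over Sham-WM were 0.76 ± 0.13 (SE), adjusted p = 0.00206 for Ctsz and 0.63 ± 0.14 (SE), adjusted p = 0.00615 for Ctsb, and over Sham-Ad lib 0.53 ± 0.13 (SE), adjusted p = 0.0579 and 0.48 ± 0.14 (SE), adjusted p = 0.0737. Fdft1 lies opposite Ctsb and Nelfcd opposite Ctsz.

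Ctsl stood at 524, 796, 546 and 703 CPM in Sham-Ad lib, 502, 605, 406 and 405 CPM in Sham-WM and 714, 843, 818 and 708 CPM in VSG. The VSG values were above those of Sham-WM and within the Sham-Ad lib range apart from 8F and 11F, and 9F stood above the other Sham-WM values. Hexa stood at 58.8, 75.98, 72.7 and 54.5 CPM in Sham-Ad lib, 55.2, 47.9, 47.03 and 44.4 CPM in Sham-WM and 102, 71.9, 75.7 and 84.3 CPM in VSG, with VSG above Sham-WM and 1F highest. Over Sham-WM the log2 fold change was 0.68 ± 0.17 (SE), adjusted p = 0.0118 for Ctsl and 0.78 ± 0.14 (SE), adjusted p = 0.00235 for Hexa. The calls of Ctsz, Ctsb, Ctsl and Hexa against Sham-WM held when any 1 library was left out. Each of these calls was lost with RUVs factors. The aspartic protease Ctsd stood at 321, 341, 340.4 and 334 CPM in Sham-Ad lib, 350.4, 328, 288 and 268 CPM in Sham-WM and 421, 369, 328 and 382 CPM in VSG. Sham-WM and VSG overlapped through 11F, and its log2 fold change over Sham-WM was 0.28 ± 0.12 (SE), adjusted p = 0.0872. Gla, which encodes alpha-galactosidase A, did not pass either, at 0.14.

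Lipa, the acid lipase that splits cholesteryl esters and triglycerides in the lysosome, went against the other hydrolases. Lipa (mm10 chr19:34492318-34527474, minus strand) stood at 277, 253, 278 and 255 CPM in Sham-Ad lib, 306, 349.7, 359.6 and 368 CPM in Sham-WM and 196, 237, 212 and 216 CPM in VSG. The 3 ranges did not overlap, with VSG lowest and Sham-WM highest. Lipa rose in Sham-WM over Sham-Ad lib (log2 fold change 0.38 ± 0.10 (SE), adjusted p = 0.0421) and was lower in VSG than in Sham-WM (-0.68 ± 0.10 (SE), adjusted p = 0.00112), and in VSG against Sham-Ad lib it was at -0.31 ± 0.10 (SE), adjusted p = 0.106. The difference between VSG and Sham-WM held when any 1 library was left out but was lost with RUVs factors. The rise in Sham-WM held in 4 of the 12 fits. It was lost without any one of 3F, 4F, 6F, 10F, 9F, 15F, 16F and 18F, with an adjusted p of up to 0.128, and also without the filter on low counts.

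Lysosomal membrane genes and the proton pump that acidifies the lumen held 1 call by edgeR among 7 genes. It was in VSG against Sham-WM, where 26.9% of all genes tested were called. Lamp1, the most abundant of the 44 genes per length, stood at 685, 738, 761 and 706 CPM in Sham-Ad lib, 652, 620.2, 659 and 666 CPM in Sham-WM and 806, 710.2, 786 and 818 CPM in VSG, and all Sham-WM values lay below the other 8. Its log2 fold change was -0.15 ± 0.10 (SE), adjusted p = 0.43 in Sham-WM against Sham-Ad lib and 0.26 ± 0.10 (SE), adjusted p = 0.0716 in VSG against Sham-WM, and neither passed edgeR's test, while DESeq2 called the second (0.25, adjusted p = 0.0035). Grtp1 lies opposite Lamp1. Lamp2 and the calcium channel gene Mcoln1 did not pass in any comparison.

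Of the 4 pump genes only Atp6v1b2 did, in VSG against Sham-WM. It stood at 45.7, 51.03, 52.9 and 44.5 CPM in Sham-Ad lib, 41.8, 48.7, 42.5 and 42.8 CPM in Sham-WM and 66.7, 58.3, 49.2 and 64.4 CPM in VSG, with every VSG value above every Sham-WM value, 11F only just above 9F. This gave a log2 fold change of 0.44 ± 0.11 (SE), adjusted p = 0.0127, and the call held when any 1 library was left out. The call of Atp6v1b2 was lost with RUVs factors. Atp6v1a, the catalytic subunit it pairs with, stood at 58.8, 55.5, 58.7 and 44.05 CPM in Sham-Ad lib, 51.1, 47.97, 47.2 and 49.9 CPM in Sham-WM and 49.9, 49.8, 37.6 and 52.7 CPM in VSG. The groups overlapped, 11F being lowest, and its log2 fold change over Sham-WM was -0.045 ± 0.12 (SE), adjusted p = 0.809. Atp6v0d1 and Atp6v1h did not pass either, and in both 11F was the highest VSG value.

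Per length, expressed as CPM per kilobase of annotated exon, the 44 genes ranged widely. In Sham-Ad lib the highest means were 270 for Lamp1, 211 for Gabarapl1 and 160 for Bnip3. In Sham-WM Gabarapl1 was at 74.7 and Bnip3 at 92.9, against 243 for Lamp1, 131 for Ctsd and 118 for Ctsz. In VSG the values were 292 for Lamp1, 210.5 for Gabarapl1, 200.2 for Ctsz, 167 for Bnip3 and 159 for Ctsd. Exon lengths sum all annotated isoforms, so a gene with long, rarely used exons is given too low a level.

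The CLEAR-type motif was then set beside the tests. Of the 7 genes with it, only Ctsa was higher in VSG than in Sham-WM (log2 fold change 0.80) and only Atg3 lower (-0.39), while Ctsd, Gla, Mcoln1, Atp6v0d1 and Atp6v1a did not pass. Of the other 29 genes with a promoter, 13 were higher and 2 lower. Over all genes tested, 25.8% of the 221 with the motif and 27.1% of the 9893 without it were called in that comparison, and the medians of their log2 fold changes were 0.03 and 0.029. In Sham-WM against Sham-Ad lib, 9.5% of those with the motif and 7.13% of those without it were called.

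Genes of the same pathway outside the 44 were examined as 6 lists with 155 genes, of which 152 were tested. In Sham-WM against Sham-Ad lib 23 passed (15.1%, against 6.99% of all genes tested), 2 higher and 21 lower, and in VSG against Sham-WM 53 passed (34.9%, against 26.9%), 38 higher and 15 lower. In VSG against Sham-Ad lib 1 passed by edgeR, Lgmn, which encodes the lysosomal protease legumain, while 50 had an unadjusted p under 0.05 (24.1% of all genes) and DESeq2 called 23 (9.21% of all genes). The median log2 fold changes of the 152 were -0.14, 0.19 and 0.033. Without library 16F the count was 15 in Sham-WM against Sham-Ad lib (3.19% of all genes) and 32 in VSG against Sham-WM (16.5%). The first was also 15 without 6F (4.17%) or 15F (3.36%). Among the 152, Lgmn was the only gene edgeR called in VSG against Sham-Ad lib. The count of the 152 there was 11 without 4F (6.82% of all genes), 12 without 8F (1.72%) and 23 without 18F (8.2%). It was 0 without any one of 3F, 6F, 10F, 2F, 9F, 15F, 16F and 1F, where 0% to 0.0226% of all genes were called.

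Further hydrolases and their activators made up the largest of these lists, and 17 of its 37 genes rose and 1 fell in VSG against Sham-WM (48.6% called, against 26.9% of all genes). Those with the largest differences were the protease genes Ctss (log2 fold change 2.05 ± 0.37 (SE), adjusted p = 0.00242) and Lgmn (1.45 ± 0.24, adjusted p = 0.00172), followed by the phospholipase Pla2g15 (1.23 ± 0.18, adjusted p = 0.00094), Idua (1.06 ± 0.18, adjusted p = 0.00191), Arsa (0.97 ± 0.14, adjusted p = 0.000753), Galns (0.97 ± 0.23, adjusted p = 0.00942) and Dnase2a (0.92 ± 0.15, adjusted p = 0.00174), all by edgeR. Mean Ctss was 93.7 CPM in VSG against 22.7 in Sham-WM and 35.9 in Sham-Ad lib, and mean Arsa 66.7 CPM against 34.1 and 71.6. Arsa and Idua fell in Sham-WM against Sham-Ad lib, and Ctss, Lgmn, Pla2g15, Galns and Dnase2a did not pass there.

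Of 12 further cargo receptors tested, 5 fell in Sham-WM against Sham-Ad lib (Calcoco1, Retreg1, Stbd1, Tex264 and Tax1bp1), and 5 were higher and 2 lower in VSG than in Sham-WM. These are 41.7% and 58.3% of the list, against 6.99% and 26.9% of all genes. Mean Calcoco1 was 33.9 CPM in VSG against 21.7 in Sham-WM and 44.5 in Sham-Ad lib. Retreg1 and Tex264 encode receptors for pieces of endoplasmic reticulum, and Stbd1 one that binds glycogen. In the list of 29 further genes of the machinery 4 fell and 1 rose in Sham-WM (17.2%, against 6.99% of all genes), with Wdr45, a relative of Wipi1, at -0.88 ± 0.14 (SE), adjusted p = 0.0036 by edgeR, and 1.06 ± 0.14, adjusted p = 0.000625, in VSG against Sham-WM.

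Among 32 regulators, 3 fell in Sham-WM against Sham-Ad lib, namely Mtor and the folliculin genes Flcn and Fnip1. In VSG against Sham-WM 2 regulators rose and 7 fell. Both shares, 9.38% and 28.1%, are near those of all genes (6.99% and 26.9%). Castor1, an arginine sensor upstream of mTOR, was at 1.35 ± 0.35 (SE), adjusted p = 0.0137, and Sesn3, which encodes a sestrin, at -0.95 ± 0.32, adjusted p = 0.0421, both by edgeR. Castor1 was scarce, at a mean of 2.06 CPM in VSG, 0.802 in Sham-WM and 1.63 in Sham-Ad lib. The members of this list both promote and restrain autophagy. Of 27 further genes of the lysosomal membrane and of sorting, 1 rose and 4 fell in Sham-WM (18.5%, against 6.99% of all genes). In VSG against Sham-WM 6 rose and 2 fell (29.6%, near the 26.9% of all genes), with Cd63, a tetraspanin of late endosomes, at 1.277 ± 0.42 (SE), adjusted p = 0.0387 by edgeR. None of 15 further pump genes passed in Sham-WM against Sham-Ad lib, and 4 rose and 1 fell in VSG against Sham-WM (33.3%, against 26.9% of all genes).

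**Figure D4:**
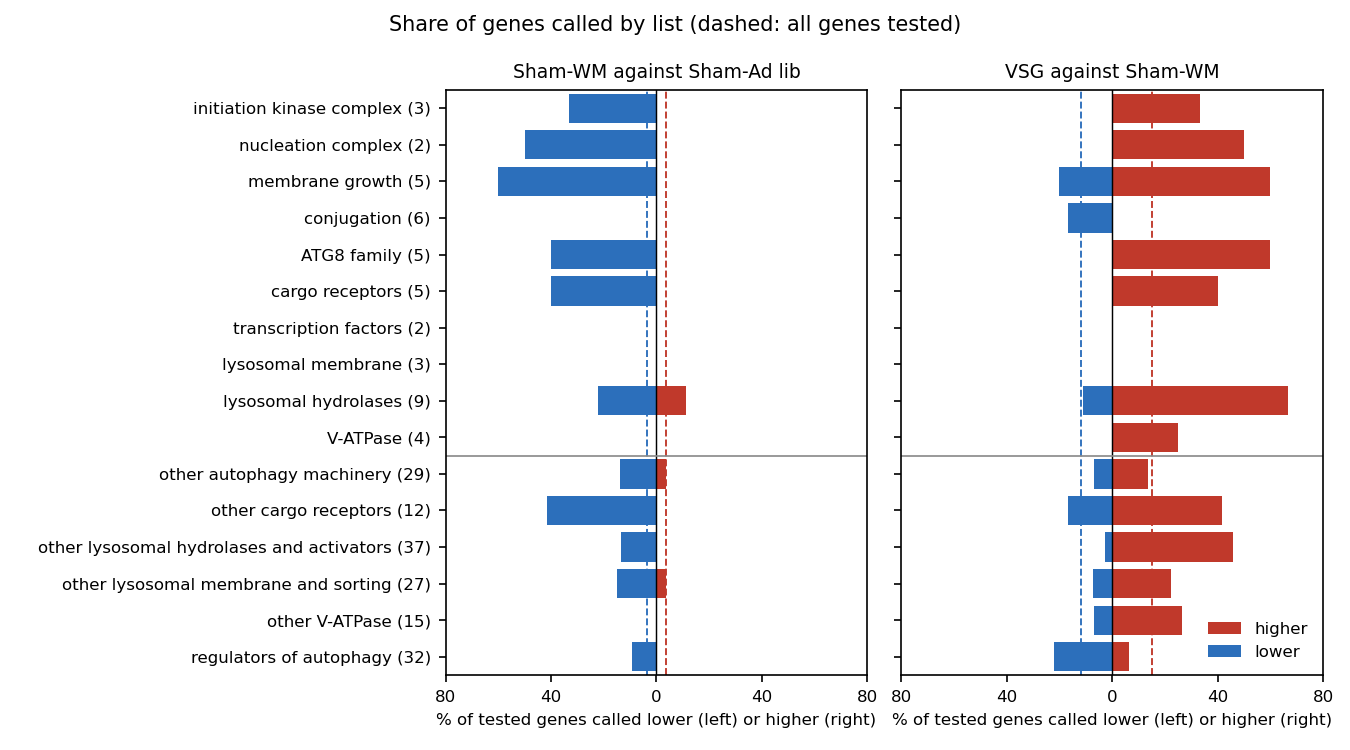
Bars give, for each role of the 44 genes (above the grey line) and each further list (below it), the percentage of tested genes called higher (red, right) or lower (blue, left), with the number tested in brackets; dashed lines mark the same share over all genes tested. In the left panel lower calls outweigh higher ones in every list with a call, and in the right panel the lysosomal hydrolases, the ATG8 family and membrane growth reach the highest shares of higher calls.

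Markers of immune cells moved with VSG, and they are given here because macrophages are rich in lysosomes. In bulk tissue, more cells of a type and more RNA per cell cannot be told apart. By edgeR, all 10 Kupffer cell markers and 6 of 10 markers of recruited macrophages were higher in VSG than in Sham-WM. So were all 7 tested neutrophil markers, against 15.0% of all genes tested. In VSG against Sham-Ad lib, edgeR called 2, 0 and 6 of these markers higher, against 0.467% of all genes. DESeq2 called 9, 6 and 7 of them higher there, and 9.21% of all genes in either direction. Summed CPM of the Kupffer cell markers was 202 to 646 in Sham-Ad lib, 177 to 297 in Sham-WM and 659 to 1828 in VSG, with 1F highest and 18F lowest in VSG and 4F highest in Sham-Ad lib. The sum of the neutrophil markers was 0.649 to 14.4 in Sham-Ad lib, 1.52 to 2.65 in Sham-WM and 32.3 to 1031 in VSG, and Ly6g was at 0 in every library of the first 2 groups. Defining Kupffer markers such as Clec4f and Timd4 were above 0 in all libraries.

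Within VSG, 1F had the highest level of Ctsb, Ctsz, Hexa and Neu1 as well as of both marker sums. Library 8F had the second highest of both sums, 942.5 CPM for the Kupffer cell and 436.5 CPM for the neutrophil markers, and the lowest VSG value of the same 4 genes. Among the other hydrolases, 8F had the highest VSG value of Ctsl (843 CPM), Gla (7.91) and Lipa (237). It had the lowest of Ctsa (189) and neither for Ctsd (369). Library 1F was also highest for Ctsa and Ctsd, but not for Ctsl, Gla and Lipa. In Sham-WM against Sham-Ad lib no Kupffer marker passed the test, but all 10 had a log2 fold change below 0, at a median of -0.44. The same held for 9 of 10 markers of recruited macrophages and all 7 tested neutrophil markers, none of which passed. Ctsa and Neu1 fell there. Within VSG the ATG8 sum was 857, 854, 1012 and 1020 CPM in 1F, 8F, 11F and 18F. Of its genes, Gabarapl1 was highest in 18F (565 CPM) and Gabarap lowest there (222 CPM). Without library 1F, 15 of the 44 genes were called in VSG against Sham-WM (18.0% of all genes). The part of the immune markers in the hydrolase result and in the ATG8 sums was not tested. Hepatocyte markers summed to 110800 to 133300 CPM in Sham-Ad lib, 130000 to 162000 in Sham-WM and 86660 to 131000 in VSG.

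**Figure D5:**
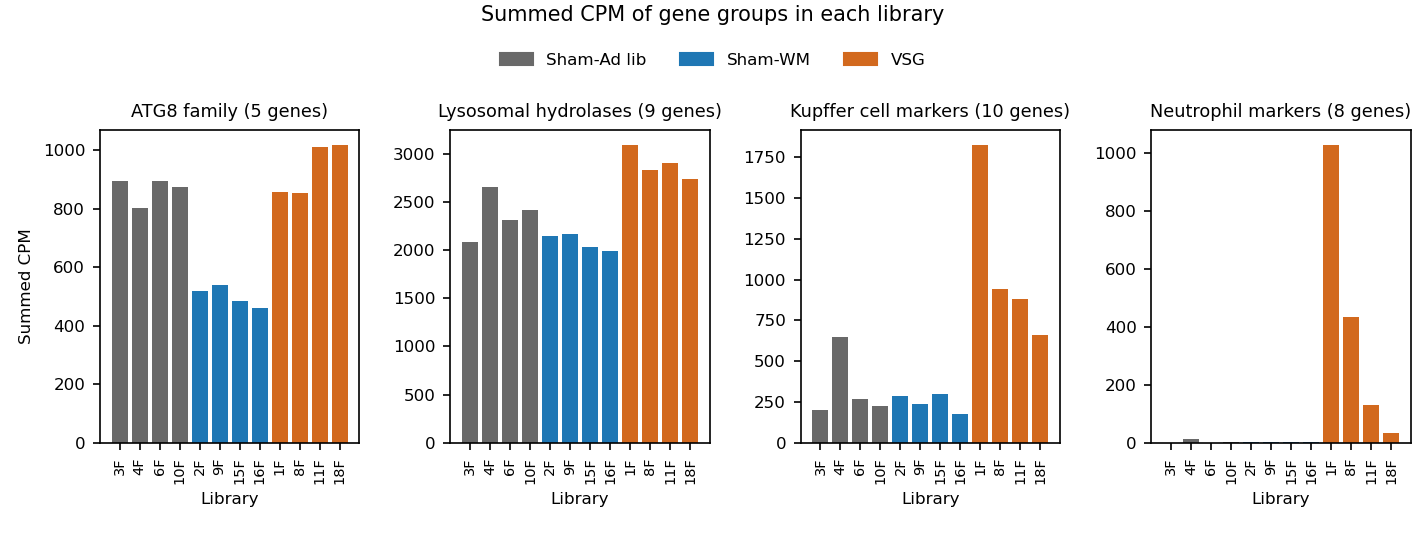
Bars give the summed CPM of 4 groups of genes in each of the 12 libraries, coloured by group, on axes that start at 0. The ATG8 family is lowest in the 4 Sham-WM libraries, the hydrolases are highest in the 4 VSG libraries, and the Kupffer cell and neutrophil markers are highest in library 1F.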

How the data were processed

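Liver poly(A) RNA of 12 mice was made into directional libraries and sequenced. Alignment to mm10 by the authors used TopHat2 2.1.1, they counted reads on genes with featureCounts, and deposited the counts per Ensembl gene as whole numbers without normalization. The table has 46078 genes, 45229 of which matched GENCODE M21. Titles give the animal number, so replicates are separate mice, and columns were assigned to groups by that number. No 2 replicates had identical counts, as Spearman rho between them ran from 0.963 to 0.992. No column was left out.

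Counts were filtered with filterByExpr, which left 13054 genes with at least 99.88% of each library's counts, scaled by TMM (factors 0.879 to 1.04), and fitted in edgeR 4.0.16 (R 4.3.3) as 3 group means of all 12 libraries. The 3 contrasts were tested by the quasi-likelihood test, adjusted by the Benjamini-Hochberg method over all genes tested and called at 0.05. The method was tested on simulated data. Alternatives were DESeq2 1.42.0, its size factors in edgeR, upper quartile factors, no filter, at least 10 counts in every library, only the 2 groups compared, 2 factors of unwanted variation from residuals (RUVr) or from replicates (RUVs), written out from their definitions since the authors used RUVSeq with 2 factors, groups taken from the description field, and each library left out in turn.

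The 44 genes, the lists and the tests were chosen with earlier results of these data known. Genes named with a value in each library are all those called in at least 1 comparison and 1 fixed gene per role; of the other pathway genes, the 12 with the largest called log2 fold change are named with values, and those listed by name only were added after their values were seen. Coordinates of promoter sequences from RefSeq were checked against 58 GENCODE transcript starts, and all 58 matched. Becn1, Atg12, Atg16l1, Map1lc3a, Bnip3l, Ctsb, Atp6v1b2 and Atp6v1h were not matched.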

Additional observations from a re-analysis of the deposited data

Results flagged for a closer look

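In groups of 4 libraries, a value was listed when its gap to the nearest other value divided by the group's range exceeded Dixon's 95% critical value. Chance lists about 1 in 20 groups, which is 6.6 of the 132 groups of 44 genes examined, and 7 were listed. Of these, 4 were library 11F in VSG. Bnip3 was at 602 CPM there against 326 in the nearest VSG library, Bnip3l at 114.7 against 92.5, Atp6v0d1 at 96.9 against 81.6 and Atp6v1h at 85.7 against 54.7. The same library was the farthest from its group's median for 18 of the 44 genes. Without it 20 of the 44 were called in VSG against Sham-WM (23.4% of all genes).

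The other 3 values lay in other libraries. Ctsz was at 197 CPM in 2F of Sham-WM against 165 in the nearest library, Atp6v0d1 at 94.8 in 10F of Sham-Ad lib against 77.3, and Atp6v1b2 at 48.7 in 9F of Sham-WM against 42.8.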

How the results depend on the processing

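No paired analysis was possible because the replicate numbers are animal numbers that differ between the groups. Of the counts and medians recomputed under settings other than leaving out a library, 84 kept within their limits and 24 moved. Many of the moves came from grouping by the description field, which mixes the groups given by animal number. None of the 44 genes, 0 other pathway genes and 0% of all genes tested were then called in any comparison. With this grouping, medians for the autophagy machinery became 0.08 (VSG against Sham-Ad lib), 0.06 (the 2 sham groups) and 0.01 (VSG against Sham-WM). Those of the lysosome became 0.09, 0.01 and 0.05. Under it, called log2 fold changes turned to 0.38 for Gabarapl1, 0.15 for Map1lc3b, 0.62 for Atg14, 0.11 for Neu1 and for Wipi1, 0.45 for Atg2a, 0.07 for Ctsa, 0.55 for Ulk1, -0.10 for Lipa and 0.12 for Wipi2 for weight-matched against freely fed sham mice, and to -0.0041 for Map1lc3b, -0.36 for Atg14, -0.34 for Atg2a, -0.0039 for Bnip3, -0.26 for Ulk1, -0.19 for Ctsl and 0.05 for Atg3 in VSG against Sham-WM. No called direction of a single member turned under the other settings or when a library was left out.

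In VSG against Sham-Ad lib, members called numbered 14 with RUVr factors (7 higher, 7 lower; 23.1% of all genes), 7 with DESeq2 (4 higher, 3 lower; 9.21%) and 1 without a filter (2.72%). Other pathway genes called there numbered 45 with RUVr factors, 23 with DESeq2, 11 without a filter, and 0 with RUVs factors, under the filter of at least 10 counts in each library, or in a fit of the 2 groups alone. RUVs factors left 6 of the 44 and 10 other pathway genes called in VSG against Sham-WM (3.97% of all genes). They took the lysosomal median in VSG against Sham-Ad lib to 0.11. RUVr factors gave 36 other pathway genes in Sham-WM against Sham-Ad lib (16.8% of all genes). The cause was not tested. The 6 were Gabarapl1, Map1lc3b, Neu1, Bnip3, Wipi1 and Ctsa.

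With each library left out in turn, members called ranged from 0 to 5 (VSG against Sham-Ad lib), from 8 to 14 (the 2 sham groups) and from 12 to 20 (VSG against Sham-WM). The share of all genes called ranged from 0% to 8.2%, from 3.19% to 9.89% and from 16.5% to 29.1% in these fits. Other pathway genes called ranged from 0 to 23, from 15 to 27 and from 32 to 54. The medians ranged from -0.12 to -0.02, -0.27 to -0.20 and 0.12 to 0.21 for the machinery, and from 0.15 to 0.21, -0.18 to -0.11 and 0.23 to 0.30 for the lysosome. The lowest count of any of the 44 genes in a library was 91, and each group had 4 mice.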
